A study of Homo sapiens with 9 samples.

Results

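The genes described here are the heat shock proteins, their J-domain and cytosolic partners, the chaperonins, the main folding chaperones of the endoplasmic reticulum and mitochondria, and the heat shock factors HSF1 and HSF2. They were chosen by name, from a list of 40 gene symbols, with earlier results of these data known. Of these 40 genes, 34 had an array row naming that gene alone, out of 17047 such genes in the table, and 32 were bright enough to be tested, out of 12785. The cells were A375P, a human melanoma cell line whose MEK/ERK signalling is driven by a mutant BRAF kinase. They were treated with the vehicle DMSO, with 1 µM PD184352, an inhibitor of the kinase MEK, or with 0.4 µM PLX4720, an inhibitor of RAF kinases, for 2, 6 or 24 h, and total RNA was hybridised to an exon-type expression array. The 3 treatments and 3 times give 9 groups with 1 deposited column each, so a group has no replicate of its own; the study speaks of triplicate experiments, and the sources used here do not state whether a column is 1 array or a mean of 3. Each deposited column is called an array below. All groups come from this single line.

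Molecular chaperones bind proteins that are not yet folded, or have lost their fold, and keep them from aggregating. In the cytosol the HSP70 proteins act with J-domain proteins, which deliver the client and trigger ATP hydrolysis, and with HSP110 proteins, which exchange the nucleotide; HSP90 takes over many kinases and receptors, and the ring-shaped chaperonin TRiC, built from TCP1 and the CCT subunits, folds actin and tubulin. The endoplasmic reticulum holds its own HSP70 (HSPA5, also called BiP), its own HSP90, lectin chaperones and disulfide isomerases, and mitochondria hold HSPA9, TRAP1 and the HSPD1/HSPE1 chaperonin. Cytosolic chaperone genes are classically induced by HSF1 through heat shock elements, and those of the endoplasmic reticulum by the unfolded protein response through ER stress elements.

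Some members carry one of these elements in their promoter, and the sequences below are shown for the measured genes that do. Windows from 250 bases before to 50 bases after the start of a gene, from RefSeq (GRCh38.p14), were searched on both strands for a heat shock element (GAA, any 2 bases, TTC, any 2 bases, GAA) and an ER stress element (CCAAT, any 9 bases, CCACG); 37 of the 40 genes had an entry, and HSF1, HSPA14 and CCT6A had none. Over all 35116 windows of this length the heat shock element occurred in 172 (0.49%) and the ER stress element in 27 (0.0769%). Among the members the heat shock element occurred in 4 of 21 cytosolic genes (HSPA8, HSP90AA1, HSP90AB1 and DNAJA1), in 1 of 5 mitochondrial genes (HSPD1) and in 0 of 10 genes of the endoplasmic reticulum. The ER stress element occurred in 5 of 10 genes of the endoplasmic reticulum (HSPA5, HSP90B1, CALR, CANX and PDIA6) and in 0 of the cytosolic and mitochondrial genes. A match is a description of letters and was not tested as a binding site. In the sequences the capitals mark the matched element on either strand, letters run 5′ to 3′ on the gene's strand, and HSPA8, HSP90AA1 and HSPA5 are given as the whole 250 bases before the start.
HSPA8, the constitutive HSP70, chr11:123062137-123062386, minus strand: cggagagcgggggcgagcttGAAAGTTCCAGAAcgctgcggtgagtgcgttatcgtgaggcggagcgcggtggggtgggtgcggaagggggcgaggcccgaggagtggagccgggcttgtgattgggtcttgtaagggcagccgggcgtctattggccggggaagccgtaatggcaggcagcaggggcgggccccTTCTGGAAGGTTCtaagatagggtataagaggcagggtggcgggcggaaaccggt
HSP90AA1, the inducible cytosolic HSP90, chr14:102087045-102087294, minus strand: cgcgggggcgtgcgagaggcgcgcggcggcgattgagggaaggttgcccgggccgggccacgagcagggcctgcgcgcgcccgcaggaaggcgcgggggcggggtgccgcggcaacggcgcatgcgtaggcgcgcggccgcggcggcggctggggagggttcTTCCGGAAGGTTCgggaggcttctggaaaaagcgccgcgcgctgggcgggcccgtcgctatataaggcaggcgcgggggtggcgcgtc
DNAJA1, a J-domain partner of HSP70, chr9:33025271-33025293, plus strand: gggcgGAACTTTCCAGAAcgctc
HSPD1, the mitochondrial chaperonin HSP60, chr2:197500063-197500090, minus strand: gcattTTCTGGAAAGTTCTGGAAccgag
HSPA5, the HSP70 of the endoplasmic reticulum, chr9:125241344-125241593, minus strand: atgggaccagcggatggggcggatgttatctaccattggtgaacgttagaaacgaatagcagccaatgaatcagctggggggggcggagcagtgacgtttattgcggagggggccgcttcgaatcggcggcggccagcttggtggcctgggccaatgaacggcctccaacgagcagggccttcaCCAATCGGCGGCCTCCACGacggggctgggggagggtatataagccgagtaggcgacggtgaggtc
CALR, the lectin chaperone calreticulin, chr19:12938379-12938407, plus strand: ccacgCGTGGTCGACCATCATTGGtcggt
CANX, the lectin chaperone calnexin, chr5:179698773-179698801, plus strand: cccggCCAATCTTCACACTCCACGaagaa
PDIA6, a disulfide isomerase, chr2:10812848-10812876, minus strand: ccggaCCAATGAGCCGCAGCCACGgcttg

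The deposited values are linear intensities, and all levels below are log2(intensity + 1), compared only within a row and never between genes. The median intensity of the 9 arrays ranged from 98.96 to 102.4, and no 2 arrays held identical values. MEK/ERK target genes checked the inhibitor labels against DMSO: DUSP6, SPRY2, SPRY4, ETV5 and CCND1 were all called lower at 6 and 24 h. At 2 h only SPRY4 was called, with DUSP6 at −2.88 and SPRY2 at −2.44 not called. With both inhibitors pooled, these genes do not check which compound a column holds. Of 10 melanocyte markers 7 had a row, with SOX10 between 9.72 and 10.79 and PMEL between 10.21 and 11.18, MLANA between 6.25 and 6.92 and GPR143 between 6.59 and 6.75. TYR, DCT and S100A1 had none. TYRP1 was untested for its low mean level, but at 24 h was at 5.15 with DMSO, 7.07 with PD184352 and 6.78 with PLX4720. Of the 6 tested, 4 (S100B, MLANA, SOX10 and PMEL) were called higher at 24 h (66.7%), against 12.5% of all genes. Of the markers of other cell types, 2 epithelial (KRT8, and KRT14 at 7.53 to 7.85), 4 fibroblast (brightest COL1A1, 7.38 to 7.56) and 1 leukocyte marker (CD14, 6.77 to 7.09) were bright enough to test, and limma called 0 of them at 24 h, with 1 fibroblast marker at an unadjusted p below 0.05. EPCAM (5.87 to 6.07), DCN (4.18 to 4.63) and PTPRC (3.64 to 3.74) were too dim to test. In bulk RNA, fewer cells that express a gene and less RNA per cell cannot be told apart.

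Not analysed here as single genes, because no row named them alone, were 6 of the named genes: HSF2, HSP90AB1 and HSP90B1 (the constitutive cytosolic HSP90 and the HSP90 of the endoplasmic reticulum), AHSA1 (an HSP90 co-chaperone), HSPB8 (a small heat shock protein) and TRAP1 (the mitochondrial HSP90). The chaperonin subunit CCT8 and the mitochondrial HSP70 HSPA9 lay among the dimmest 25% of genes by mean level and were not tested. By compartment, 19 of 23 cytosolic genes, 9 of 10 genes of the endoplasmic reticulum, 3 of 5 mitochondrial genes and HSF1 were tested. Row numbers follow the genome: for 96.4% of the 17047 genes, at least 15 of the 20 nearest named rows were of the gene's own chromosome. This held for 30 of the 34 members; the rows of TCP1, HSPA9 and HSPD1 lay among rows of another chromosome, and that of HSF1 among rows of no single one. The values of these 4 genes are given with that limit.

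Most of the chaperone genes that changed after 24 h of MEK or RAF inhibition fell. Of the 18 that fell 14 are cytosolic, as are 19 of the 32 tested members. With both inhibitors set against DMSO in limma (Benjamini-Hochberg adjusted p below 0.05 over all genes tested), 18 of 32 members were lower (56.2%), against 19.2% of all genes, and 4 of 32 were higher (12.5%), against 12.5% of all genes. The median change of the 32 was −0.34, and that of all genes was −0.01. Among cytosolic members 14 of 19 fell and 4 rose, with a median of −0.39; only the chaperonin subunit TCP1, whose row lies among another chromosome's, was not called. In the endoplasmic reticulum 3 of 9 fell (median −0.20), in mitochondria 1 of 3 (median −0.23), and HSF1 was not called. With the HSPD1 row among its own chromosome's, described below, 2 of 3 mitochondrial members were lower and their median was −0.48, beyond the cytosolic one. Against the mean of the 3 DMSO arrays the median of the endoplasmic reticulum was −0.07. The difference between compartments was not tested. Each such p measures the spread between the 2 compounds at a given time around 1 DMSO array, with 3 residual degrees of freedom pooled over the times before moderation, and not the spread between cultures.

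**Figure D1:**
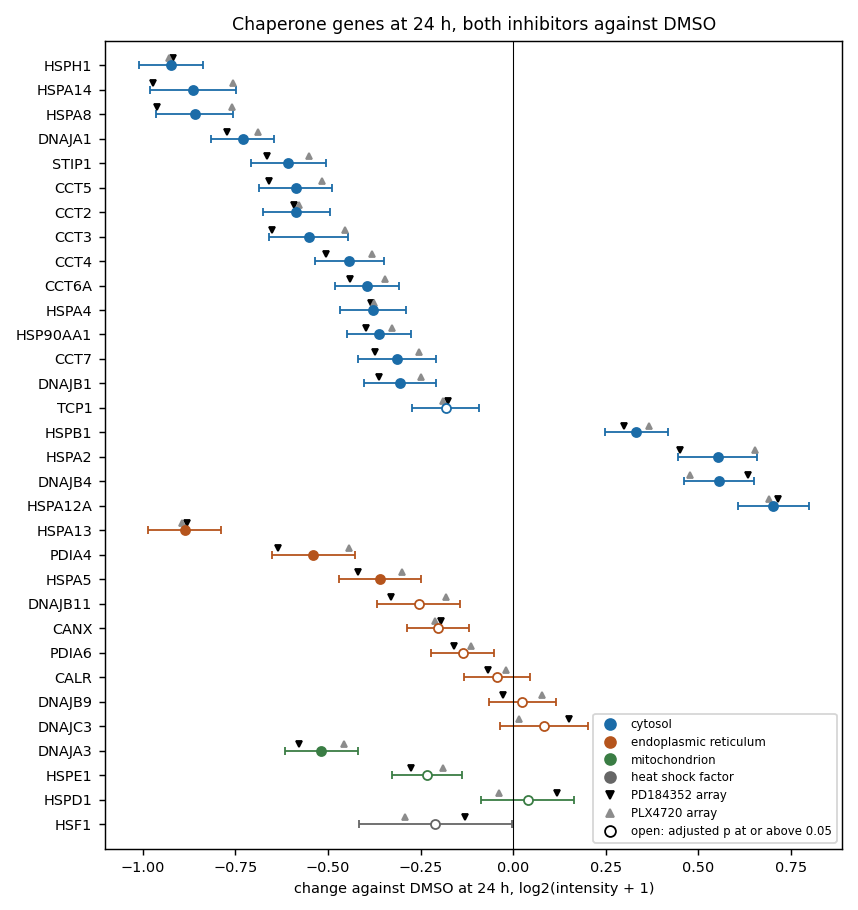
Change at 24 h against DMSO on the log2(intensity + 1) scale for each tested member, with PD184352 and PLX4720 as separate points and the mean of both with its limma standard error. Cytosolic members reach from −0.92 (HSPH1) to 0.70 (HSPA12A), and most members of the endoplasmic reticulum lie nearer 0, except HSPA13 at −0.89 and PDIA4 at −0.54.

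**Figure D2:**
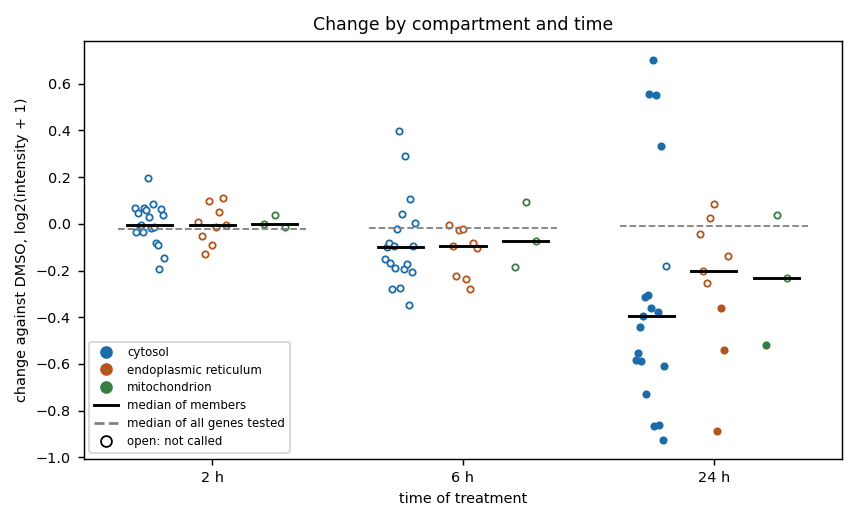
Members' mean change of both inhibitors against DMSO at 2, 6 and 24 h on the log2 scale, by compartment, with each point a gene and the line the median. The cytosolic median goes from −0.01 at 2 h through −0.10 at 6 h to −0.39 at 24 h, while the median of all genes tested is −0.02, −0.02 and −0.01.

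The HSP70 and HSP110 genes of the cytosol split, with HSPH1, HSPA14, HSPA8 and HSPA4 lower and HSPA12A and HSPA2 higher at 24 h. HSPH1, an HSP110 that exchanges nucleotide on HSP70, had the largest change of any member. Its level on the DMSO arrays was 9.16, 9.33 and 9.31 at 2, 6 and 24 h, with PD184352 9.21, 9.18 and 8.40, and with PLX4720 9.23, 9.07 and 8.38. Both 24 h inhibitor arrays lay below every other array, and the 2 h arrays did not stand apart from DMSO. The change at 24 h was −0.92 (SE 0.09), a 1.90-fold lower level, with limma's adjusted p at 3.5e-05. Its promoter window held neither element.

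HSPA8, the constitutive HSP70 whose promoter carries a pair of heat shock elements, measured 9.19, 9.48 and 8.92 with DMSO, 9.05, 9.18 and 7.96 with PD184352, and 9.14, 9.09 and 8.17 with PLX4720 at 2, 6 and 24 h. The DMSO array at 24 h was itself the lowest of the DMSO arrays, and both inhibitor arrays at 24 h lay below it. The fall against DMSO at 24 h was −0.86 (SE 0.10, limma adjusted p 1.7e-04). Other rows naming HSPA8 lay among rows of other chromosomes and gave −0.58, 0.12 and −0.10. HSPA14, an HSP70 that works at the ribosome, stood at 8.09, 8.43 and 8.32 with DMSO, 8.09, 8.29 and 7.35 with PD184352, and 8.26, 8.18 and 7.57 with PLX4720. Only the inhibitor arrays at 24 h left the range of the rest, for a change of −0.86 (SE 0.12, limma adjusted p 3.1e-04). HSPA4, another HSP110, fell by a smaller step, −0.38 (SE 0.09, limma adjusted p 0.00832).

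HSPA12A, a distant relative of HSP70, moved the other way. Its levels were 8.13, 8.08 and 8.08 with DMSO, 8.07, 8.21 and 8.80 with PD184352, and 8.16, 8.05 and 8.77 with PLX4720. The inhibitor arrays at 24 h lay above all others, with a change of 0.70 (SE 0.10, limma adjusted p 3.6e-04). HSPA2, an HSP70 best known from the testis, also rose, by 0.55 (SE 0.11, limma adjusted p 0.00278), while its DMSO level went from 8.39 at 2 h to 8.81 at 24 h.

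In the HSP90 branch both tested genes fell. STIP1, the adaptor that links HSP70 to HSP90, was at 8.85, 8.94 and 8.83 with DMSO, 8.84, 8.93 and 8.16 with PD184352, and 8.94, 8.76 and 8.28 with PLX4720. HSP90AA1, whose promoter above carries a heat shock element, was at 7.60, 7.97 and 7.41 with DMSO, 7.60, 7.73 and 7.02 with PD184352, and 7.66, 7.67 and 7.08 with PLX4720. For both genes the inhibitor arrays at 24 h were the lowest, but HSP90AA1 was also lower with DMSO at 24 h than at 2 or 6 h. The changes at 24 h were −0.61 (SE 0.10, limma adjusted p 0.00123) for STIP1 and −0.36 (SE 0.09, limma adjusted p 0.00971) for HSP90AA1. The HSP90AA1 call was lost when all its rows were averaged (−0.32, adjusted p 0.103).

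The subunits of the chaperonin TRiC fell together: 6 of 7 tested were lower at 24 h, with a median change of −0.44. CCT5 stood at 8.85, 8.99 and 8.82 with DMSO, 8.79, 8.77 and 8.16 with PD184352, and 8.90, 8.86 and 8.30 with PLX4720. CCT2 stood at 11.30, 11.44 and 11.31 with DMSO, 11.34, 11.36 and 10.71 with PD184352, and 11.40, 11.22 and 10.73 with PLX4720. In both, the DMSO arrays kept close to each other over the times and only the inhibitor arrays at 24 h dropped below the rest. CCT3 was at 10.56, 10.67 and 10.58 with DMSO, 10.48, 10.50 and 9.93 with PD184352, and 10.57, 10.63 and 10.13 with PLX4720. CCT4 was at 9.11, 9.19 and 9.22 with DMSO, 9.11, 9.07 and 8.72 with PD184352, and 9.20, 9.14 and 8.84 with PLX4720. These subunits showed the same order, with no overlap between the 24 h inhibitor arrays and any other array.

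At 24 h the changes were −0.59 for CCT5 (SE 0.10, limma adjusted p 0.00121), −0.58 for CCT2 (SE 0.09, adjusted p 7.7e-04), −0.55 for CCT3 (SE 0.11, adjusted p 0.00303) and −0.44 for CCT4 (SE 0.09, adjusted p 0.00486). CCT6A changed by −0.39 (limma adjusted p 0.00569) and CCT7 by −0.31 (limma adjusted p 0.0459). The CCT6A call was lost when its rows were averaged (−0.23, adjusted p 0.0802). That of CCT7 was lost under quantile normalization (−0.21, adjusted p 0.102), without the PD184352 array at 24 h (−0.25, adjusted p 0.151), and without either 6 h inhibitor array (adjusted p 0.0653). TCP1 itself had −0.18 and was not called, from a row among those of another chromosome. CCT8, too dim to test, was at 6.21, 6.42 and 6.32 with DMSO, 6.14, 6.13 and 5.98 with PD184352, and 6.24, 6.10 and 6.00 with PLX4720. A second, dimmer row of CCT5 gave −1.53, the same direction at a different size.

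**Figure D3:**
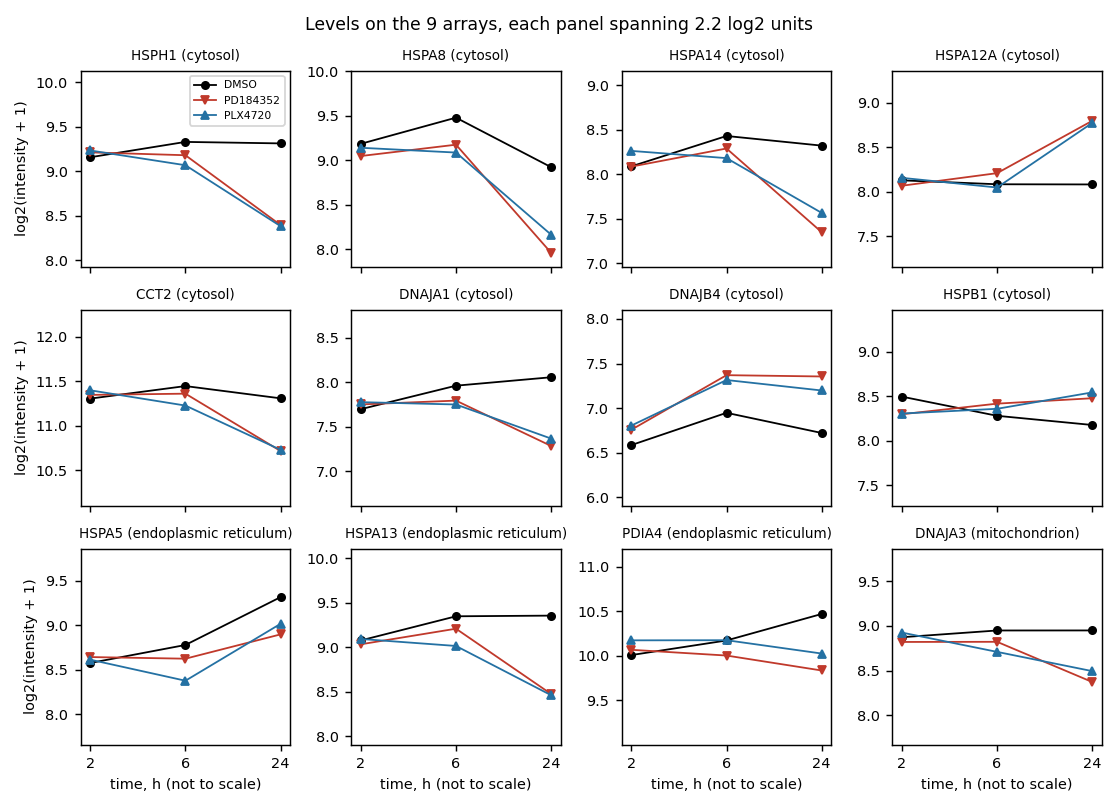
Level on each of the 9 arrays, log2(intensity + 1), against time (2, 6 and 24 h, evenly spaced), for selected members, with a line for each treatment. HSPH1 separates from DMSO at 24 h (8.40 and 8.38 against 9.31), while HSPA5 is brighter at 24 h than at 2 h under every treatment (9.32 against 8.58 with DMSO).

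J-domain proteins and the small heat shock protein HSPB1 did not move as one. DNAJA1, a J-domain partner of HSP70 that carries a heat shock element at its start site, measured 7.70, 7.96 and 8.05 with DMSO, 7.75, 7.79 and 7.28 with PD184352, and 7.77, 7.75 and 7.37 with PLX4720. Its DMSO level was highest at 24 h, where the inhibitor arrays were the lowest, and the change was −0.73 (SE 0.09, limma adjusted p 1.4e-04). DNAJB1, the main stress-inducible J-domain protein of the cytosol, was at 8.07, 8.21 and 8.21 with DMSO, 8.10, 8.26 and 7.85 with PD184352, and 8.17, 8.13 and 7.96 with PLX4720. The separation was narrow, a change of −0.31 (SE 0.10, limma adjusted p 0.0349). It was lost without the PD184352 array at 24 h (−0.25, adjusted p 0.148) and when its rows were averaged (−0.18, adjusted p 0.137).

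DNAJB4, a J-domain protein related to DNAJB1, rose, and its inhibitor arrays already lay above all DMSO arrays at 6 h. Its levels were 6.58, 6.95 and 6.72 with DMSO, 6.76, 7.37 and 7.35 with PD184352, and 6.80, 7.31 and 7.20 with PLX4720. At 24 h the change was 0.56 (SE 0.09, limma adjusted p 0.00134), and at 6 h it was 0.40 with an adjusted p of 0.0541. HSPB1, which holds unfolded proteins without ATP, was at 8.49, 8.28 and 8.18 with DMSO, 8.30, 8.41 and 8.48 with PD184352, and 8.30, 8.36 and 8.54 with PLX4720. Inhibitor and DMSO arrays overlapped, since the DMSO array at 2 h was as bright as the inhibitor arrays at 24 h. At 24 h HSPB1 rose against its DMSO array by 0.33 (SE 0.09, limma adjusted p 0.0131), a call lost without the PLX4720 array at 24 h (0.30, adjusted p 0.0608).

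In the endoplasmic reticulum 3 members fell at 24 h: HSPA13, PDIA4 and HSPA5. HSPA13, an HSP70 bound to microsomal membranes, was at 9.08, 9.35 and 9.36 with DMSO, 9.03, 9.21 and 8.48 with PD184352, and 9.09, 9.02 and 8.46 with PLX4720. Only the 24 h inhibitor arrays lay below the rest, and the change was −0.89 (SE 0.10, limma adjusted p 9.7e-05).

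HSPA5 and PDIA4 are both targets of the unfolded protein response, and their DMSO levels climbed between 6 and 24 h. HSPA5 was at 8.58, 8.78 and 9.32 with DMSO, 8.64, 8.62 and 8.90 with PD184352, and 8.61, 8.38 and 9.02 with PLX4720. At 24 h the inhibitor arrays of HSPA5 were brighter than every 2 h and 6 h array and still below DMSO at 24 h. The change was −0.36 (SE 0.11, limma adjusted p 0.0322), and it was not called without the PD184352 array at 24 h (−0.30, adjusted p 0.0864), without either 2 h inhibitor array (−0.36, adjusted p 0.0533) or under quantile normalization (−0.28, adjusted p 0.0805). PDIA4, a disulfide isomerase, was at 10.01, 10.17 and 10.47 with DMSO, 10.07, 10.00 and 9.83 with PD184352, and 10.17, 10.17 and 10.02 with PLX4720. Its inhibitor arrays at 24 h overlapped the DMSO arrays of earlier times, and its change was −0.54 (SE 0.11, limma adjusted p 0.00426).

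From 2 to 24 h of DMSO alone HSPA5 went up by 0.74, more than 99.77% of the tested genes, PDIA4 by 0.46, more than 97.33%, and HSPA13 by 0.28, more than 89.96%. The other tested members of the endoplasmic reticulum shifted less over this time with DMSO, from −0.004 (DNAJC3) to 0.18 (DNAJB9). Among them were CANX at 0.02, CALR at 0.04, DNAJB11 at 0.06 and PDIA6 at 0.14. With PD184352 and PLX4720 the HSPA5 level went up by 0.25 and 0.40 over the same time. Among cytosolic members the DMSO shift from 2 to 24 h was 0.42 for HSPA2, 0.36 for DNAJA1, −0.26 for HSPA8 and −0.32 for HSPB1, against −0.28 and 0.38 for the 5th and 95th percentiles of all genes tested. Each is a difference between 2 single arrays, with no test.

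The other members of the endoplasmic reticulum were not called at 24 h. The lectin chaperones calreticulin (CALR) and calnexin (CANX) had −0.04 and −0.20, and the isomerase PDIA6 had −0.14; all 3 carry the ER stress element shown above. The J-domain proteins of this compartment, which serve HSPA5, had 0.03 (DNAJB9), −0.26 (DNAJB11) and 0.08 (DNAJC3). DNAJB11, with the largest of these values, was at 9.73, 9.74 and 9.80 with DMSO, 9.49, 9.47 and 9.47 with PD184352, and 9.72, 9.55 and 9.61 with PLX4720. All inhibitor arrays of DNAJB11 lay below all DMSO arrays, but at 24 h limma's adjusted p was 0.119.

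Of the mitochondrial members, DNAJA3, the J-domain partner of mitochondrial HSP70, fell. It was at 8.87, 8.95 and 8.95 with DMSO, 8.82, 8.82 and 8.37 with PD184352, and 8.93, 8.71 and 8.49 with PLX4720. The 24 h inhibitor arrays were the lowest, with a change of −0.52 (SE 0.10, limma adjusted p 0.00254). HSPE1, the co-chaperonin HSP10, had −0.23 (limma adjusted p 0.0907).

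HSPD1, its partner HSP60, depended on which array row stood for it. The brightest row, which lies among rows of another chromosome, was at 7.84, 7.60 and 7.84 with DMSO, 7.98, 7.58 and 7.96 with PD184352, and 7.78, 7.82 and 7.80 with PLX4720, a change of 0.04 at 24 h (limma adjusted p 0.872). The row among neighbours of its own chromosome was at 7.47, 7.81 and 7.46 with DMSO, 7.47, 7.27 and 6.87 with PD184352, and 7.58, 7.41 and 7.09 with PLX4720. In that row the 24 h inhibitor arrays were the lowest, and the change was −0.48 (limma adjusted p 0.00822). HSPA9, dim and also on a row among another chromosome's, was at 5.87, 5.48 and 5.44 with DMSO, 5.74, 5.51 and 5.38 with PD184352, and 5.45, 5.49 and 5.11 with PLX4720.

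**Figure D4:**
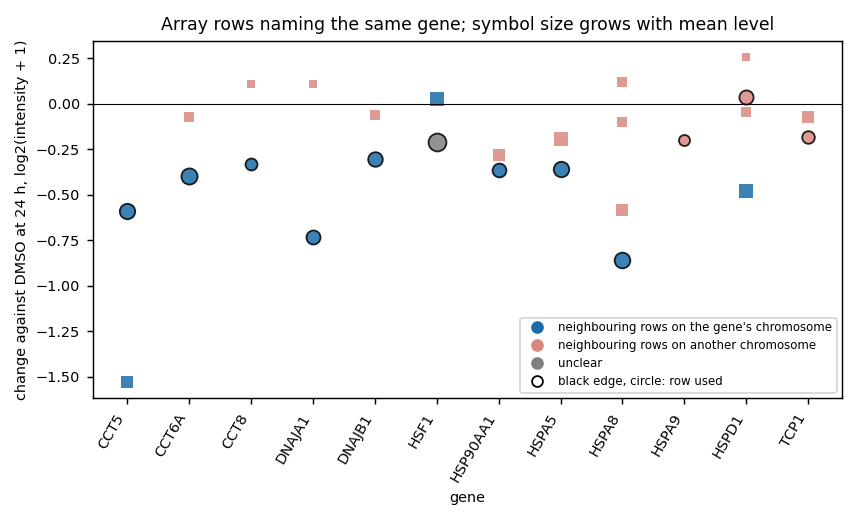
Change at 24 h on the log2 scale for every array row naming 1 gene, for members with more than 1 row or with a row not among their own chromosome's, coloured by the chromosome of the neighbouring rows, with the row used drawn as a circle. Rows among their own chromosome's reach −0.48 for HSPD1 and −1.53 for CCT5, and most rows placed elsewhere lie nearer 0.

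The regulator HSF1, which activates the heat shock genes, was at 10.58, 10.29 and 10.62 with DMSO, 11.04, 10.39 and 10.49 with PD184352, and 10.40, 10.61 and 10.33 with PLX4720. These arrays followed no order by treatment or time, and the change at 24 h was −0.21 (SE 0.21, limma adjusted p 0.521). The other row naming HSF1, among rows of its own chromosome, gave 0.03 at 24 h.

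Earlier in the treatment no chaperone gene was called in the main fit. At 2 h limma called 0 of 32 members (1 at an unadjusted p below 0.05, HSPB1 at −0.19), beside 11 of all genes (0.086%; 0.0704% lower and 0.0156% higher; 948 unadjusted). At 6 h it called 0 of 32 (8 unadjusted), beside 419 of all genes (3.28%; 2.74% lower and 0.54% higher; 1985 unadjusted), and with an intensity trend in the prior it called 1. The largest 6 h values were 0.40 for DNAJB4, −0.35 for HSPA8 (adjusted p 0.123), 0.29 for HSPA2, and −0.28 each for HSPA5 and CCT6A. Medians at 6 h were −0.10 for cytosolic members and −0.09 for those of the endoplasmic reticulum. At this time 25 of 32 members lay below DMSO (9 of 9 in the endoplasmic reticulum), beside 7082 of 12785 genes tested. This lean was not tested.

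Whether the change itself differed between the times was tested with limma's F-test, which called 11 of 32 members and 1903 of all genes (14.9%). Cytosolic HSPH1 (24 h change minus 2 h change −0.99, adjusted p 0.00145), DNAJA1 (−0.80, adjusted p 0.00442) and HSPA14 (−0.95, adjusted p 0.00822) led these, with HSPA13 of the endoplasmic reticulum (−0.87, adjusted p 0.00524). The other 7 were HSPA12A, HSPA8, CCT2, STIP1, HSPB1, CCT5 and PDIA4. Without the PLX4720 array at 2 h the count was 6, with HSPA8 (−0.72, adjusted p 0.0504), STIP1 (−0.60, adjusted p 0.0645), CCT5, HSPB1 and PDIA4 no longer called. Leaving out other single inhibitor arrays also ended the calls of CCT5 (either 6 h array or PD184352 at 2 or 24 h, adjusted p up to 0.0784), HSPB1 (either 6 h array, PD184352 at 2 h or PLX4720 at 24 h, up to 0.0722) and PDIA4 (PD184352 at 2 or 24 h or PLX4720 at 6 h, up to 0.0719).

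PD184352 and PLX4720 are chemically different inhibitors that act at successive kinases of one pathway, and their doses differ (1 and 0.4 µM), so their values stand side by side here. At 24 h the single-array changes were −0.92 and −0.93 for HSPH1, −0.96 and −0.76 for HSPA8, −0.97 and −0.76 for HSPA14, −0.63 and −0.44 for PDIA4, and 0.71 and 0.69 for HSPA12A, with PD184352 first. Of the 18 members that fell, 16 were lower with PD184352 than with PLX4720 (88.9%), as were 73.8% of the 2449 genes of the table that fell. The gap in these 18 reached at most 0.22. Both sets of changes use the same DMSO arrays.

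Over the 3 times, limma called 0 of 32 members and 0 of 12785 genes (0%) as different between the compounds, with 3 and 555 at an unadjusted p below 0.05 and 0 genes when all 9 arrays were fitted together. The 3 members were PDIA4 (PD184352 minus PLX4720 −0.16, 95% interval −0.30 to −0.02), DNAJB11 (−0.15, −0.30 to −0.01) and CCT3 (−0.14, −0.28 to −0.00). Across the 32 pairs compared, the interval bounds ran from −0.30 to 0.45, and their median reach to either side of the estimate was 0.143. The widest departure was HSF1, at 0.19 (−0.06 to 0.45). With 2 residual degrees of freedom, these intervals do not show that the compounds act alike.

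**Figure D5:**
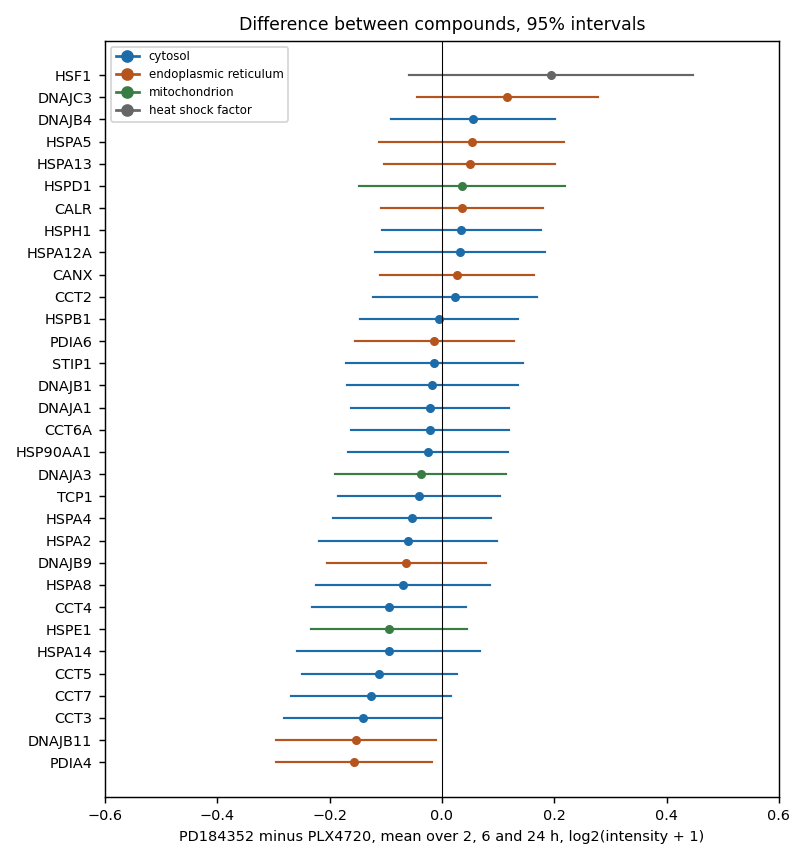
PD184352 minus PLX4720 for each tested member over the 3 times on the log2 scale, with limma's 95% intervals. All intervals lie between −0.30 and 0.45, and PDIA4, DNAJB11 and CCT3 are the members whose intervals end below 0.

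Genes that work with these chaperones were read from further lists. Of 30 tested cytosolic co-chaperones and other heat shock genes, 9 fell (30%) and 3 rose (10%) at 24 h, against 19.2% and 12.5% of all genes, with a median of −0.12. BAG3, an HSP70 co-chaperone that directs clients to autophagy, was at 9.06, 9.11 and 9.11 with DMSO, 8.73, 8.76 and 7.94 with PD184352, and 8.84, 8.65 and 8.10 with PLX4720. Its inhibitor arrays lay below DMSO at every time, and its change at 24 h of −1.10 (SE 0.10, limma adjusted p 3.1e-05) was larger than that of HSPH1. FKBP4, an HSP90 co-chaperone, changed by −0.84 (adjusted p 1.3e-04), HSPA4L, an HSP110, by −0.50 (adjusted p 0.00535), and the neuronal J-domain gene DNAJB2 by 0.60 (adjusted p 0.00109). FKBP5, another HSP90 co-chaperone, was the 1 gene of these lists called at 2 h, with a change of 1.00 (limma adjusted p 0.027). It was at 6.07, 6.81 and 6.66 with DMSO, 7.02, 6.38 and 6.40 with PD184352, and 7.12, 6.71 and 6.44 with PLX4720. The 2 h inhibitor arrays of FKBP5 were its highest and the 2 h DMSO array its lowest, and no gene was called at 2 h after quantile normalization or without either 2 h inhibitor array.

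Prefoldin hands unfolded actin and tubulin to TRiC, and of 9 tested prefoldin subunits and chaperonin cofactors 4 fell (44.4%, against 19.2% of all genes) and 0 rose (against 12.5%), with a median of −0.18. PFDN2 was at 10.92, 11.18 and 11.37 with DMSO, 11.10, 10.83 and 10.46 with PD184352, and 11.21, 10.88 and 10.45 with PLX4720. Its DMSO level climbed while its inhibitor levels dropped, for a change of −0.91 at 24 h (SE 0.09, limma adjusted p 3.9e-05). VBP1, also a prefoldin subunit, had −0.84 (adjusted p 7.3e-05) and PFDN4 −0.33 (adjusted p 0.0187), while the tubulin cofactor TBCC had −0.29 (adjusted p 0.0394). Leaving out the PD184352 array at 24 h ended the call of PFDN4 (adjusted p 0.0665) and that of TBCC (adjusted p 0.0821), and TBCC was not called without the PLX4720 array at 24 h (adjusted p 0.0829) or either 6 h inhibitor array (adjusted p 0.0546).

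The wider set of folding and unfolded protein response genes of the endoplasmic reticulum had 9 of 37 lower (24.3%) and 4 higher (10.8%) at 24 h, near the 19.2% and 12.5% of all genes, with a median of −0.01. ERO1B, an oxidase that drives disulfide formation, was at 8.95, 9.27 and 9.08 with DMSO, 8.66, 8.11 and 8.11 with PD184352, and 8.85, 8.08 and 8.03 with PLX4720. It had already fallen at 6 h (−1.17, limma adjusted p 2.4e-04), as had EDEM1, which sends misfolded glycoproteins for degradation (−0.48, adjusted p 0.0476). The transcription factor XBP1, a core effector of the unfolded protein response, fell at 24 h (−0.56, adjusted p 8.0e-04), and DNAJC1, a membrane J-domain protein, rose (0.90, adjusted p 1.9e-04). ATF4, DDIT3, HERPUD1 and ATF6, other genes of this response, had 0.23, 0.05, 0.03 and 0.18 and were not called. Also called lower at 24 h were SDF2L1 (−0.52), ERO1A (−0.50), HYOU1 (−0.41), DERL1 (−0.40), PDIA5 (−0.35) and DNAJC10 (−0.34). The remaining genes called higher were OS9 (0.45), CRELD1 (0.39) and SIL1 (0.32).

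Of 16 tested mitochondrial chaperones, import factors and proteases, 5 fell (31.2%, against 19.2% of all genes) and 1 rose (6.25%, against 12.5%), with a median of −0.26. The nucleotide exchange factors of mitochondrial HSP70, GRPEL1 and GRPEL2, changed by −0.73 (limma adjusted p 8.0e-04) and −0.60 (adjusted p 4.2e-04). The protease LONP1 changed by −0.52 (adjusted p 0.00204) and the import motor subunit TIMM44 by −0.43 (adjusted p 0.00642).

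The tested genes whose 9 levels followed those of HSPH1 most closely by Pearson correlation were ERLIN1 (0.997), TTC39C (0.996), NUP88 (0.993), NIPA2 (0.992) and SEH1L (0.992). These values describe 9 arrays that share treatments and times, over all genes tested.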

How the data were processed

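Total RNA of A375P cells was measured on exon-type arrays, with 1 column for each of 9 combinations of treatment and time. The deposited values are gene-level intensities on a linear scale; per the submitters' processing notes RMA, limma and R 2.8.0 were used, with no role or order given, and they name no build. Values were taken as log2(intensity + 1) with no further normalization. Of 35446 rows, 19380 name 1 gene; the row with the highest mean stood for a gene, and the dimmest 25% of 17047 genes were left out, leaving 12785. limma 3.58.1 in R 4.3.3 fitted a mean for inhibitors and for DMSO at each time (3 residual degrees of freedom), an F-test between times, and PD184352 against PLX4720 with time as a block (2 residual degrees of freedom), with Benjamini-Hochberg adjustment over 12785 genes at 0.05. The number of arrays limits the precision. The scripts were tested on simulated data. The members and lists were chosen with earlier results of these data known. All members with a row are named; levels on all arrays are given for HSF1 and for up to 4 called members of a class with the largest 24 h change, and from each list up to 4 called genes. HSPD1's second row, CCT8, HSPA9, FKBP5 and the genes of the endoplasmic reticulum list beyond 4 were added after their values were seen. The alternatives were another pseudocount, filter, normalization, row choice and prior, leaving out each array, and, added after seeing the data, the row among neighbours of its own chromosome.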

Additional observations from a re-analysis of the deposited data

Results flagged for a closer look

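For 11 members the change against DMSO differed between the times by limma's F-test, as it did for 14.9% of all genes. The 24 h change minus the 2 h change, in log2, was -0.9888 for HSPH1, -0.9488 for HSPA14, -0.8733 for HSPA13 and -0.7961 for DNAJA1. It was -0.7691 for HSPA8, -0.6522 for CCT2, -0.6517 for PDIA4, -0.6442 for STIP1 and -0.5777 for CCT5. It was 0.7185 for HSPA12A and 0.5266 for HSPB1. With no filter on dim genes PDIA4, STIP1, CCT5 and HSPB1 were not called. Calls lost when single arrays were left out are given above.

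Rows that list a member, or the HSP70 genes HSPA1A and HSPA1B, together with another gene were used in no comparison. In 5 of them each of both inhibitor arrays at some time lay above the highest DMSO array, with no test. The excess given is that of their mean. This search looked for rises only, and falls are given after them. The row listing HSP90AB3P and HSP90AB1, dim at 4.44 to 5.24, was above by 0.34 at 2 h and by 0.04 at 24 h. A brighter row of the same pair was at 8.34 with DMSO, 8.36 with PD184352 and 8.33 with PLX4720 at 2 h. At 24 h that brighter row gave -0.28 against DMSO. The excess was 0.0845 at 6 h for a row of HSPA1B and HSPA1A and 0.0735 at 2 h for the row of MYCT1 and HSPD1, also dim at 3.30 to 3.52. It was 0.0626 at 6 h for the row of CCT6P3, CCT6A and CCT6P1, and 0.0682 at 24 h for the row of LRRC28, HSP90B1 and HSP90B2P. In other rows both 24 h inhibitor arrays lay below every DMSO array. Against DMSO at 24 h these gave -0.54 (HSPA9 and SNORD63), -0.33 (TCP1, SNORA20 and SNORA29) and -0.37 (TRAP1 and DNASE1). The same held for both rows of HSPA1A and HSPA1B (-0.90 and -0.52) and the brighter row of HSP90AB1 and HSP90AB3P. It also held for a dim row of HSP90B1 and HSP90B3P (-0.47).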

How the results depend on the processing

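No paired analysis was possible because each group holds 1 deposited column, so that groups share fewer than 2 replicate numbers. Time was a block only between the compounds. Of 22 members called at 24 h, 13 kept the call in all 15 alternatives and 3 kept it in all but 1, where they were too dim to test (HSPA8 and DNAJA1 with all rows averaged, DNAJB4 with the dimmest 50% left out); no direction reversed. With all rows averaged 12 members were called lower, against 18. With no filter on dim genes CCT7, DNAJB1 and HSPA5 were not called (adjusted p 0.0763, 0.057 and 0.0587), nor was HSPA5 with all rows averaged (0.0654). The count of genes called at 2 h (11) was 1 with no filter on dim genes, 35 with the dimmest 50% left out, 23 with a pseudocount of 16, 0 after quantile normalization and 20 with the row among neighbours of its own chromosome, an alternative chosen after seeing the data; with single arrays left out it ran from 0 (without a 2 h inhibitor array) to 95 (without a 24 h one). At 6 h the 419 genes became 252 with no filter and 205 to 800 with single arrays left out, and members called higher or lower each ran from 0 to 1 (0 with all arrays; 1 higher with an intensity trend in the prior, and 1 of each without either 24 h inhibitor array). Members called by the F-test (11) were 7 with no filter and 6 to 13 with arrays left out. Genes called between the compounds (0) were 24 with the dimmest 50% left out and 0 to 25 with arrays left out (25 without a 6 h array, 5 without a 24 h array). The mitochondrial median at 24 h (-0.23) was -0.38 with all rows averaged and -0.48 with the own-chromosome row, which made it -0.18 at 6 h (-0.07). The median of the endoplasmic reticulum at 24 h (-0.20) was -0.0681 against the mean of the 3 DMSO arrays. The causes of these shifts were not tested. Without an inhibitor array its arm has 1 sample, assumed to vary like the others; without a DMSO array its time has no contrast. Dim rows limit what can be seen of CCT8 and HSPA9 in rows naming them alone.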

Other observations

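Chaperone genes also appear in rows listing more than 1 gene, whose values were not assigned to any 1 of the genes listed. A row listing HSPA1A and HSPA1B, the stress-inducible HSP70 pair, was at 9.75, 10.16 and 10.50 with DMSO at 2, 6 and 24 h, 9.65, 10.13 and 9.75 with PD184352, and 9.84, 10.49 and 9.47 with PLX4720. Its DMSO level climbed with time, and at 24 h the inhibitor arrays differed from DMSO by -0.90 on average; a further row listing the same pair gave -0.52. These values have no test.

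At 24 h the row listing HSPA9 with the small nucleolar RNA SNORD63, at 7.96 to 8.71 over the arrays, gave -0.54. The row listing TCP1 with SNORA20 and SNORA29, at 7.17 to 7.94, gave -0.33. That of TRAP1 and DNASE1 gave -0.37, and the brighter row of HSP90AB1 and its pseudogene HSP90AB3P gave -0.28. Rows of HSP90B1 and HSP90B3P, of HSPB8 and PDAP1, and of CRTC3 and HSPE1 gave 0.13, 0.13 and 0.09. A further row of HSP90B1 and HSP90B3P gave -0.47, but was dim, at 3.96 to 4.73 against 7.39 to 7.71 for the first.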
